A study of Mus musculus with 18 samples.

Results

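Interferon-stimulated genes are the genes whose RNA rises when a cell senses an interferon. Here they were taken as a fixed list of 44 mouse symbols, and each was looked up by its gene name in 18 expression tables. The tables of 12 mouse libraries, which list 23284 symbols each, held 43 of the 44 members, and Ifi27 had no row. The tables of 6 eosinophil libraries carry human symbols, 25548 of them, and held 39 of the 44, with no row for OAS1A, OAS1G, OASL1, OASL2 or H28.

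Type I interferons bind a receptor made of IFNAR1 and IFNAR2, whose kinases JAK1 and TYK2 phosphorylate STAT proteins, STAT2 among them. With IRF9 these form the complex ISGF3, which binds interferon-stimulated response elements in promoters. Interferon-gamma uses another receptor, IFNGR1 and IFNGR2. The induced proteins sense viral RNA, block translation, degrade RNA, hinder entry and budding, and modify other proteins with ISG15, a protein related to ubiquitin. T cells, eosinophils and lung tissue can all respond to interferons.

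The study measured RNA in memory T helper 2 (Th2) cells, eosinophils and lung, with 3 libraries in each of 6 groups, all labelled BALB/c. The Th2 cells, selected for high ST2 (the IL-33 receptor), were cultured for 3 days with IL-33 and IL-2 or, as controls, with IL-2 alone, so every Th2 culture received IL-2. Eosinophils were cultured for 3 days with or without amphiregulin, a ligand of the epidermal growth factor receptor. Lungs came from knock-out mice, named dGATA in the titles, and from wild-type (WT) mice, all treated with OVA per their labels, although the design text names HDM for lung; the labels spell out neither abbreviation, nor the deletion, nor ages. The labels call the eosinophils mouse cells, but their tables hold human gene symbols and are described here as human. No label ties a library to its own animal, donor or culture, so p-values measure the spread between these samples, which may be technical.

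Levels are FPKM, fragments scaled to transcript length and to the library's mapped total, and differences are on the log2(FPKM + 1) scale, which understates the change of low genes. A gene was tested where at least 3 of the 6 libraries of a comparison reached 1 FPKM, and was called at an adjusted p under 0.05 (limma, adjusted over all genes tested). Read totals are unknown. Relative depth, read from the steps between low values, ran from 0.67 to 1.34 in Th2 cells, from 0.36 to 1.0 in eosinophils and from 0.58 to 1.0 in lung. The T cell markers Cd3d, Cd3e, Cd4 and Gata3 summed to 794 to 874 FPKM with IL-33 and 397 to 501 FPKM with IL-2 alone. The Th2 library 5 (IL-2 alone) and library 6 (IL-33) stood apart from the others of their groups in several members, and their titles share a spelling (ST2high) that the other 4 lack. The dGATA lung 1 stood low in macrophage markers. For members, values without these libraries are given where they change a result.

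Promoters of 6 members are shown because these genes include several of the largest falls in Th2 cells and the pair that differed most in lung. Each line gives the 160 bases before the annotated start in the gene's own direction (RefSeq, GRCm38.p6), with capitals marking the core of the interferon-stimulated response element, searched on both strands as GAAA, 2 bases of any kind and GAAA again; neighbouring matches can overlap. Ifit1 lies at chr19:34640729-34640888 and Ifit3 at chr19:34583369-34583528, both on the plus strand. Rsad2 lies at chr12:26456453-26456612, Isg15 at chr4:156200819-156200978, Oas1a at chr5:120907526-120907685 and Oas1g at chr5:120887614-120887773, all on the minus strand.
Ifit1: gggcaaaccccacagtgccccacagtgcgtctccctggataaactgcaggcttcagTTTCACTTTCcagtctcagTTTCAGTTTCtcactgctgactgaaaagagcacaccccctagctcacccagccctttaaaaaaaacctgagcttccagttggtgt
Ifit3: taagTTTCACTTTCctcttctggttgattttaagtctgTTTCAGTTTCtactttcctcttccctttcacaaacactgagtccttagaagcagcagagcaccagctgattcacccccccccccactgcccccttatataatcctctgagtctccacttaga
Rsad2: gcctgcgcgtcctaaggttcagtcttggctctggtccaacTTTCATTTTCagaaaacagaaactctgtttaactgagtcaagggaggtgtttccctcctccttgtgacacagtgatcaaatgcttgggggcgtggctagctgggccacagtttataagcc
Isg15: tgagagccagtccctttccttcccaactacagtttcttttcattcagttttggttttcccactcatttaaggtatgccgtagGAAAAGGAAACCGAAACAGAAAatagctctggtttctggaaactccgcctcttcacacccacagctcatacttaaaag
Oas1a: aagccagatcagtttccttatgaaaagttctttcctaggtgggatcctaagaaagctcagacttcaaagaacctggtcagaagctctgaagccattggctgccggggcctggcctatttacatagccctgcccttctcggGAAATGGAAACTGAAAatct
Oas1g: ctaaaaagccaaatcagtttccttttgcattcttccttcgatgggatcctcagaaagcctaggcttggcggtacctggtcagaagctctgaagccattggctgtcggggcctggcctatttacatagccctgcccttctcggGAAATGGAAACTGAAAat
Isg15 held 3 overlapping matches, the first at -78, Ifit1 and Ifit3 held 2 separate ones, and Rsad2 held 1 at -120. Oas1a and Oas1g each held 2 overlapping matches within 20 bases of the start, and their windows shared an unbroken run of 56 bases. Of 33 members with a promoter entry, 12 (36.4%) held a match in the 250 bases before the start, against 3.46% of 27025 genes: Bst2, Cxcl10, Gbp2, Gbp3, Ifit1, Ifit3, Isg15, Oas1a, Oas1g, Oas3, Rsad2 and Stat2. All 6 promoters shown hold a match, so they do not stand for the list or for the largest falls. Oasl2, Ifit2 and Ifi44 had an entry and no match, with log2 differences of -4.97, -4.55 and -4.39 in Th2 cells. A match is a description of these letters and not a binding site. The other 11 members had no entry under their symbol.

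In Th2 cells every member with a row was lower with IL-33. All 43 passed the filter on low values, all 43 were called lower, and in all 43 the 3 IL-33 libraries lay below the 3 IL-2 libraries. Across all genes tested, 25.7% were called lower and 35.0% were lower without overlap, so falls were common in this comparison; the split of calls moved with scaling: it was 1680 higher and 2651 lower as deposited, 1890 and 1586 after rescaling to TPM, and 2155 and 1875 after median-of-ratios scaling. The 43 members stayed called lower under both. Their median difference was -2.62 (range -4.97 to -0.81), against -0.11 for all genes. Among the 100 genes with the largest falls 26 were members, and among the 200 largest 34 were. Ifit3, Oasl2 and H28 passed the filter only through the IL-2 libraries, so these members had to differ. In bulk RNA, fewer cells of a type and less RNA per cell cannot be told apart.

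Of the role groups with several members, the effectors that act on translation and RNA had the lowest median difference, -3.65 on the log2 scale over 13 members. Oasl2, a relative of the oligoadenylate synthetases, had 0.439, 0.495 and 0.552 FPKM in IL-33 libraries 2, 4 and 6, against 40.8, 48.4 and 48.3 FPKM in IL-2 libraries 1, 3 and 5. The groups were far apart and each was tight (log2 -4.97, SE 0.10, adjusted p = 2.85e-06). Rsad2, which encodes viperin, an enzyme that makes a chain-terminating nucleotide, had 0.781, 1.06 and 1.24 FPKM with IL-33, against 52.2, 61.8 and 66.1 FPKM with IL-2 alone (log2 -4.91, SE 0.13). Ifit3 had 0.156, 0.0675 and 0.310 FPKM with IL-33, against 28.4, 35.9 and 33.1 FPKM with IL-2 alone (log2 -4.83, SE 0.12). In all 3 genes the IL-33 libraries lay far below the IL-2 libraries, although for Oasl2 and Ifit3 the filter fixed the direction and the lack of overlap.

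Ifit2, like Ifit1, encodes a protein that binds RNA and restrains translation. It had 1.09, 0.824 and 0.919 FPKM with IL-33, against 35.7, 42.8 and 58.0 FPKM with IL-2 alone (log2 -4.55). Ifit1 had 3.87, 2.51 and 4.10 FPKM with IL-33, against 54.4, 57.4 and 62.5 FPKM with IL-2 alone (log2 -3.73). Cmpk2, a mitochondrial nucleotide kinase whose gene neighbours Rsad2, had 1.39, 0.811 and 2.00 FPKM with IL-33, against 24.1, 26.3 and 36.8 FPKM with IL-2 alone (log2 -3.66). In each the lowest IL-2 library stood several times above the highest IL-33 library. Of the Ifit3 transcript's 50-base windows 51.2% also occur in Ifit3b, so reads of these copies may have been split.

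The oligoadenylate synthetases make the messenger that activates RNase L. Oas2 had 1.57, 1.44 and 3.21 FPKM with IL-33, against 35.5, 39.6 and 34.7 FPKM with IL-2 alone (log2 -3.65). Oas3 had 10.2, 7.55 and 14.3 FPKM with IL-33, against 103, 98.9 and 132 FPKM with IL-2 alone (log2 -3.29). Oas1a had 7.49, 5.48 and 3.42 FPKM with IL-33, against 95.4, 104 and 37.5 FPKM with IL-2 alone (log2 -3.55, SE 0.41). Here IL-2 library 5 and IL-33 library 6 were the lowest of their groups, and Oas1g showed the same order at 2.49, 1.51 and 1.21 FPKM with IL-33, against 31.4, 34.8 and 12.6 FPKM with IL-2 alone (log2 -3.22). Oas1a and Oas1g share 57.6% and 54.7% of their 50-base transcript windows with other genes, almost all with each other, so their separate levels are uncertain. Oasl1 fell less (log2 -1.995), as did the RNA-activated kinase gene Eif2ak2 (log2 -2.28), while Isg20, an exonuclease, had 77.1, 63.1 and 91.2 FPKM with IL-33, against 423, 466 and 482 FPKM with IL-2 alone (log2 -2.56).

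The 4 sensors fell by a median of 2.12 on the log2 scale. Dhx58, which encodes LGP2, a modulator of the RNA sensors, had 6.34, 5.02 and 7.93 FPKM with IL-33, against 56.3, 63.1 and 74.8 FPKM with IL-2 alone (log2 -3.15). Ifih1, encoding the long double-stranded RNA sensor MDA5, had 4.88, 4.34 and 10.4 FPKM with IL-33, against 30.2, 29.7 and 38.7 FPKM with IL-2 alone (log2 -2.24). Ddx58, encoding RIG-I, and Zbp1, a sensor of Z-form nucleic acid, fell less in log2 terms (-1.999 and -1.92), and Zbp1 kept a mean of 98.8 ± 14.2 FPKM with IL-33, against 374 ± 21.0 FPKM with IL-2 alone (SD, n = 3 each).

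Among the transcription factors, Irf7, the factor that amplifies interferon-alpha genes, had 40.1, 35.6 and 49.6 FPKM with IL-33, against 229, 254 and 245 FPKM with IL-2 alone (log2 -2.52). Stat2 had 16.7, 14.7 and 22.5 FPKM with IL-33, against 55.8, 61.3 and 70.9 FPKM with IL-2 alone (log2 -1.76). Both were separated between the groups without overlap. Irf9 had 32.7, 31.0 and 36.7 FPKM with IL-33, against 58.9, 57.4 and 62.4 FPKM with IL-2 alone. Its fall of 0.81 on the log2 scale (SE 0.09, adjusted p = 0.000681) was the smallest of the 43, beside -1.76 for Stat2; the difference between these members was not tested.

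The 7 membrane and other restriction genes fell by a median of 2.85 on the log2 scale. Ifitm3, which hinders fusion of viral and endosomal membranes, stayed the most abundant member with IL-33, at 176, 165 and 266 FPKM, against 724, 808 and 714 FPKM with IL-2 alone (log2 -1.91). Bst2, encoding the virion tether tetherin, had 97.7, 86.5 and 111 FPKM with IL-33, against 541, 598 and 434 FPKM with IL-2 alone (log2 -2.40). Mx1, a dynamin-like GTPase, had 10.4, 7.11 and 23.7 FPKM with IL-33, against 102, 106 and 125 FPKM with IL-2 alone (log2 -3.09). All 3 were well separated, and IL-33 library 6 was the highest of its group. Mx2 (log2 -3.31) and Samd9l, a restrictor of translation (log2 -2.85), were called lower in the same way.

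Gbp2 and Gbp3, guanylate-binding GTPases that respond strongly to interferon-gamma, had among the widest spreads. Gbp2 had 7.72, 8.12 and 17.5 FPKM with IL-33, against 69.3, 78.6 and 188 FPKM with IL-2 alone (log2 -3.16, SE 0.44, adjusted p = 0.00182). Gbp3 had 6.37, 5.64 and 14.4 FPKM with IL-33, against 21.5, 23.7 and 36.8 FPKM with IL-2 alone (log2 -1.60, SE 0.34, adjusted p = 0.0105), the largest adjusted p of the 43. In both genes the high library was IL-33 library 6 and IL-2 library 5, the libraries in which Ifng was also highest. This order was not particular to these 2 genes. Library 6 was the highest of the IL-33 libraries in 37 of 43 members (53.7% of all genes). Library 5 was the highest of the IL-2 libraries in 29 of 43 (48.8% of all genes). A link to Ifng was not tested.

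The ISG15 system fell together. Isg15 itself had 92.7, 68.2 and 137 FPKM with IL-33, against 659, 716 and 742 FPKM with IL-2 alone (log2 -2.87, SE 0.23, adjusted p = 0.000196). Usp18, the protease that removes ISG15 and damps receptor signalling, had 12.0, 7.57 and 18.1 FPKM with IL-33, against 151, 164 and 200 FPKM with IL-2 alone (log2 -3.73). Herc6, the mouse ISG15 ligase, had 5.09, 3.76 and 5.20 FPKM with IL-33, against 28.3, 30.2 and 33.9 FPKM with IL-2 alone (log2 -2.49). Parp12 (log2 -2.62) fell by a similar amount to Herc6. The other PARPs and the ubiquitin ligases of this group moved less, from Parp9 (-1.53) through Trim21 (-1.48), Dtx3l (-1.30) and Parp14 (-1.26) to Trim25 (-0.99), which acts on RIG-I.

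Cxcl10, a chemokine that draws CXCR3-bearing T cells, had 1.31, 1.35 and 1.47 FPKM with IL-33, against 24.8, 28.01 and 34.8 FPKM with IL-2 alone (log2 -3.65, SE 0.13). Of the less defined members, H28, for which RefSeq gives the name Ifi44l, had 0.155, 0.112 and 0.281 FPKM with IL-33, against 29.4, 28.8 and 21.1 FPKM with IL-2 alone (log2 -4.52). Ifi44 had 2.05, 1.19 and 2.69 FPKM with IL-33, against 65.8, 66.5 and 49.4 FPKM with IL-2 alone (log2 -4.39). Both were low in every IL-33 library, whereas Rtp4 (log2 -3.52), Xaf1 (-2.08), Sp100 (-1.41) and Ifi35 (-0.95) kept more of their RNA. Ifi27l1, a row outside the list whose symbol RefSeq gives as a synonym of Ifi27, moved the other way. It had 106, 91.1 and 85.9 FPKM with IL-33, against 41.5, 31.8 and 49.3 FPKM with IL-2 alone (log2 1.20, SE 0.16, adjusted p = 0.0018).

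**Figure D1:**
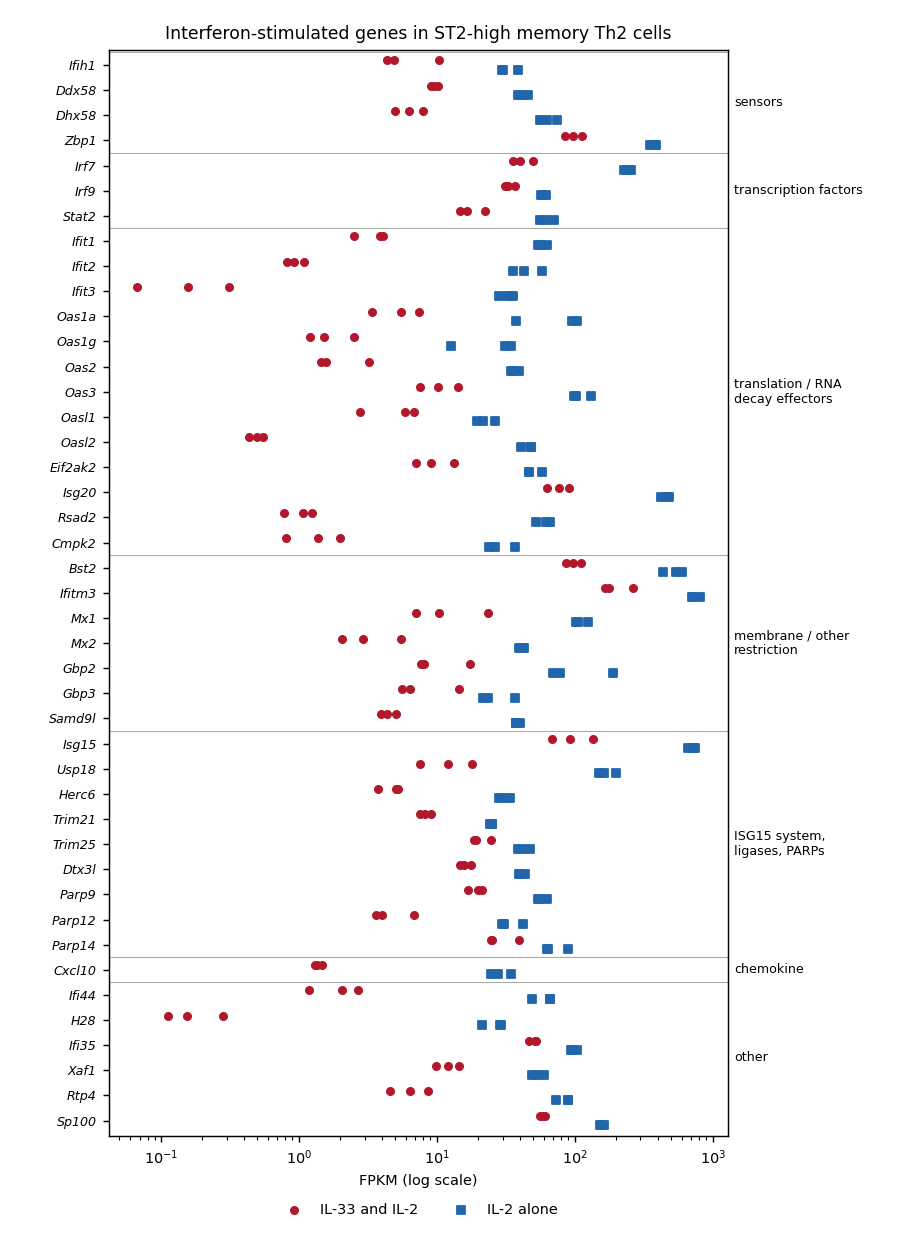
FPKM (log axis) of the 43 members in each Th2 library, grouped by role; red circles are the 3 libraries with IL-33 and IL-2, blue squares the 3 with IL-2 alone. In every row the red points lie left of the blue ones, with the widest gaps for Ifit3 and H28.

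Within the groups, the members were not equally spread. IL-33 library 4 was the lowest of all 6 in 35 of 43 members, as it was in 20.2% of all genes tested, and IL-33 library 6 was the highest of the 3 IL-33 libraries in 37 members (53.7% of all genes). IL-2 library 5 was the highest of all 6 in 29 members (36.1% of all genes). With libraries 5 and 6 both left out, all 43 members were still called lower, with a median difference of -2.69.

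Of the interferon genes themselves, the type I genes were read at low levels. Ifnb1 (interferon-beta) had 0.0991, 0.107 and 0 FPKM with IL-33, against 4.64, 4.50 and 3.96 FPKM with IL-2 alone (log2 -2.33, SE 0.10, adjusted p = 2.27e-05). Ifna2 was listed at 0 in all 3 IL-33 libraries, against 5.41, 7.70 and 10.96 FPKM with IL-2 alone (adjusted p = 9.7e-05), and Ifna4 had 0.128, 0 and 0 FPKM with IL-33, against 5.86, 7.73 and 8.17 FPKM with IL-2 alone (adjusted p = 2.33e-05). Of 8 ligands measured, 6 were tested and 5 were called lower: these 3, Ifna1 and Ifna5, all of which passed the filter only through the IL-2 libraries, so that their direction follows from the filter. Ifng (interferon-gamma) had 7.43, 5.20 and 51.9 FPKM with IL-33, against 32.7, 35.0 and 198 FPKM with IL-2 alone; the groups overlapped and it was not called (adjusted p = 0.113).

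Counts of the following lists stand beside 16.3% of all genes called higher and 25.7% called lower. Of 8 receptor and kinase genes tested, 3 were called higher and 2 lower, a lower share close to that of all genes: Il10rb (log2 0.88), Ifngr1 (0.50) and Ifngr2 (0.54) were called higher and Jak1 (-0.32) and Jak2 (-1.17) lower. Ifnar1 and Ifnar2, the type I receptor chains, were not called, with 95% intervals of the difference from -0.69 to 0.02 and from -0.05 to 0.51 on the log2 scale. Of 8 further transcription factors, 3 were called lower and 0 higher, Irf8 (-2.69) and Batf2 (-1.62) among those lower; Batf2 passed the filter only through the IL-2 libraries. Irf8, a factor of myeloid and interferon-responsive cells, had 8.26, 8.91 and 13.2 FPKM with IL-33, against 48.3, 51.6 and 134 FPKM with IL-2 alone.

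Of 11 genes that lead to interferon production, 9 were tested, 5 were called lower and 1 higher. Tlr7, the endosomal single-stranded RNA receptor, was called lower (log2 -1.75) but passed the filter only through the IL-2 libraries; Tmem173, encoding STING, was called lower too (-0.72), whereas Tlr4 was called higher (1.11). Of 9 negative regulators, Socs3 was called higher, with 115, 132 and 101 FPKM with IL-33, against 37.8, 38.8 and 18.2 FPKM with IL-2 alone (log2 1.91, adjusted p = 0.00243), and 4 were called lower, Adar (-1.24) and Ptpn6 (-1.43) among them. Socs1 had 72.1, 89.7 and 119 FPKM with IL-33, against 92.5, 96.4 and 139 FPKM with IL-2 alone, and was not called.

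Genes that prefer interferon-gamma fell as well: of 14 measured, 11 were tested, 9 were called lower and 1 higher. Iigp1, an immunity-related GTPase, had 6.19, 5.65 and 21.1 FPKM with IL-33, against 125, 131 and 211 FPKM with IL-2 alone (log2 -3.90). The gene called higher was Ido1, a tryptophan-degrading enzyme, with 5.55, 2.65 and 19.1 FPKM with IL-33, against 1.16, 0.484 and 1.08 FPKM with IL-2 alone (log2 2.06, adjusted p = 0.0253). Of 25 further interferon-induced genes outside the list, 22 were called lower and 0 higher. Ube2l6, which encodes the conjugating enzyme that carries ISG15, had 3.69, 2.87 and 4.45 FPKM with IL-33, against 77.4, 90.4 and 88.1 FPKM with IL-2 alone (log2 -4.22), and Uba7, the activating enzyme before it, fell by 1.60 on the log2 scale.

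Markers of other cells were read at unequal levels in the Th2 libraries. Listed at 0 in all 6 were Siglech (plasmacytoid dendritic cells), C1qa and Marco (macrophages), Ncr1 (natural killer cells), Clec9a and Cd209a (dendritic cells), Epx and Prg2 (eosinophils) and Csf3r (neutrophils). The 7 macrophage markers summed to 4.94 to 8.89 FPKM with IL-33 and 7.39 to 11.2 FPKM with IL-2 alone, and of 2 tested Apoe was called lower (log2 -0.70). The 5 dendritic cell markers summed to 10.6 to 11.8 FPKM with IL-33 and 4.88 to 7.04 FPKM with IL-2 alone, and of 2 tested Batf3 was called higher (1.61). Of the 4 eosinophil markers Ccr3 alone was tested and was called higher (1.89), and of 3 endothelium and stroma markers Pecam1 alone was tested and was called lower (-0.92). The eosinophil list summed to 5.74 to 7.98 FPKM with IL-33 and 0.620 to 1.73 FPKM with IL-2 alone, and the endothelium and stroma list to 13.4 to 20.0 FPKM with IL-33 and 24.0 to 41.9 FPKM with IL-2 alone. The 3 B cell markers summed to 0.317 to 0.877 FPKM with IL-33 and 0.399 to 1.17 FPKM with IL-2 alone. Of the plasmacytoid dendritic cell list, 2 of 5 markers were tested: Irf8 was called lower and Il3ra higher. The list summed to 19.4 to 25.4 FPKM with IL-33 and 52.3 to 138 FPKM with IL-2 alone, of which Irf8 made 8.26 to 13.2 FPKM with IL-33 and 48.3 to 134 FPKM with IL-2 alone. Of the 6 CD8 and natural killer markers 2 were tested; Klrk1, an activating receptor gene, had 0.256, 0.119 and 0.571 FPKM with IL-33, against 11.2, 12.9 and 16.2 FPKM with IL-2 alone, while Cd8b1 was higher with IL-33. That list summed to 10.7 to 17.2 FPKM with IL-33 and 15.2 to 22.4 FPKM with IL-2 alone, and Klrk1 passed the filter only through the IL-2 libraries. The part of these markers' cells in the fall of the members was not tested.

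**Figure D2:**
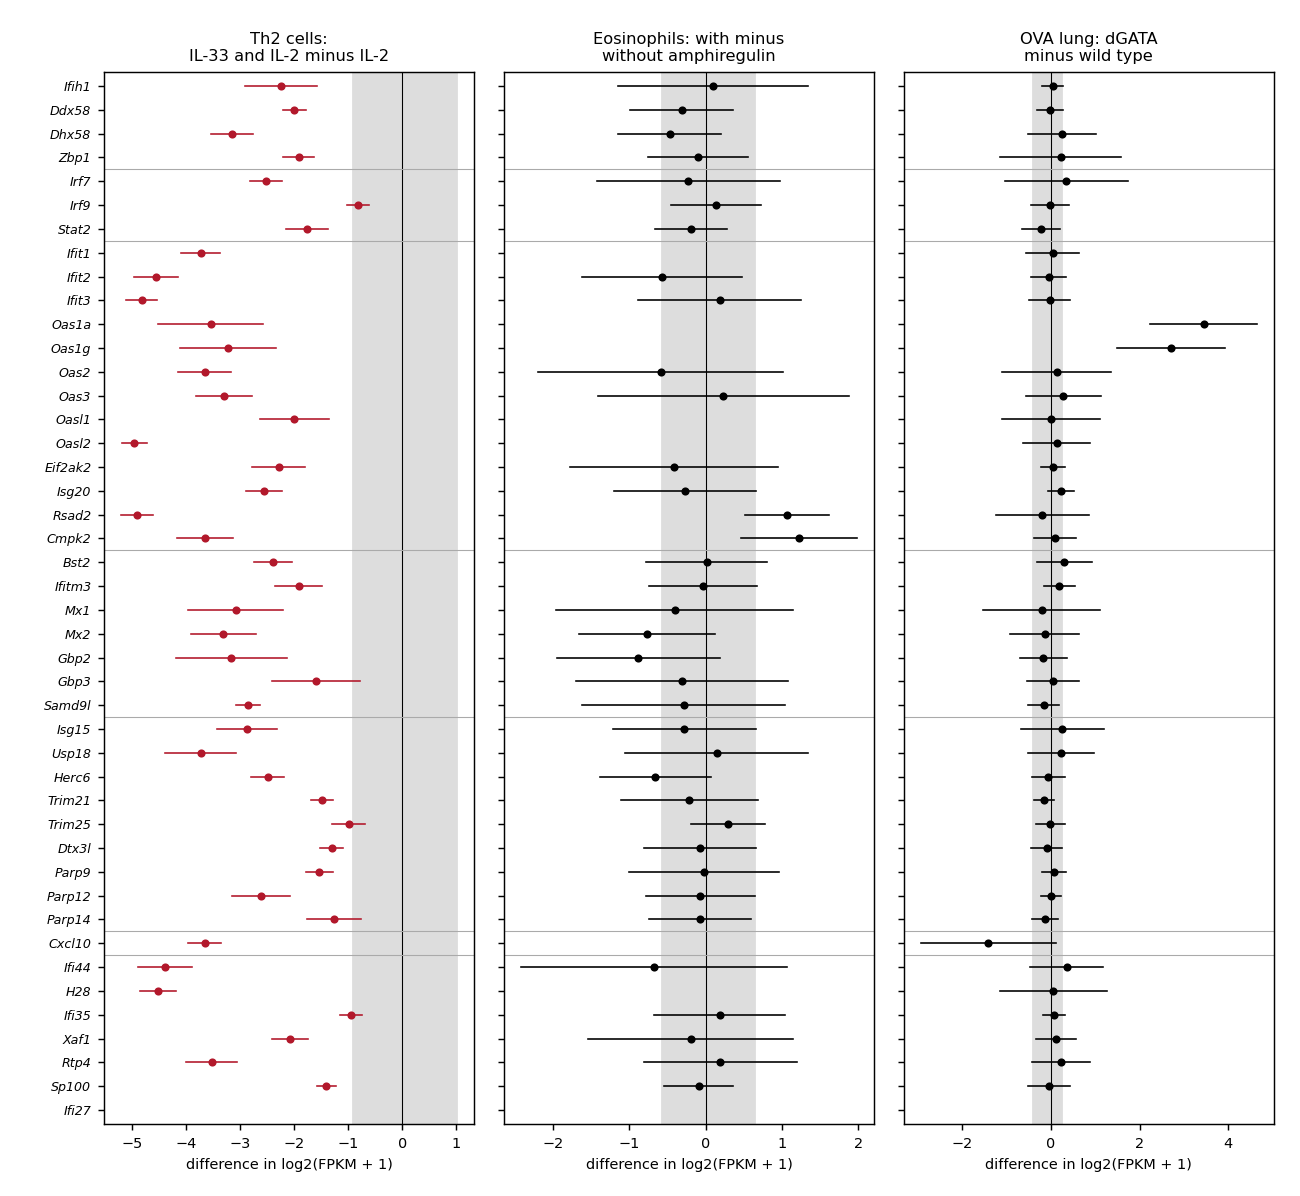
Difference in log2(FPKM + 1) of each member with its 95% interval (limma) in Th2 cells, eosinophils and lung; red marks calls at an adjusted p under 0.05, black the other members, and the grey band spans the central 90% of all genes tested. All 43 members are red and below 0 in Th2 cells, and 0 are red in eosinophils and lung.

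In eosinophils no member passed the test with amphiregulin. Of 39 members with a row, 36 were tested, 0 were called and 2 had an unadjusted p under 0.05 (limma), beside 0.206% of 12636 genes called. The median difference was -0.15, with 25 of 36 members below 0, against 0.02 for all genes. That sign depends on scaling: after rescaling to a common sum the median of all genes moved by 0.19 and 17 of 36 members were below 0, while the members' median lay 0.18 below that of all genes, after 0.17 below it as deposited. IFIT1 and IFI27 were under the filter (exact permutation p = 0.8 and 1.0, two-sided; 3 against 3 samples cannot go below 0.1), and CXCL10 was listed at 0 in all 6 libraries.

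The eosinophil libraries carry the numbers 2, 3 and 4 in both groups, and libraries of equal number varied together. In each group number 3 was the highest of the 3 libraries in 23 of 36 members and number 4 the lowest in 24, against 35.1% and 53.6% of all genes with amphiregulin and 40.8% and 49.2% without it. OAS3, for example, had 4.89, 6.37 and 0.922 FPKM with amphiregulin in numbers 2, 3 and 4, against 4.13, 5.23 and 0.611 FPKM without it. With the number as a block, 1.12% of all genes were called (67 higher and 74 lower) and still 0 members, of which 8 had an unadjusted p under 0.05. Among 9 negative regulators of interferon signalling the block fit called SOCS1 higher, which the unblocked fit did not: it had 55.9, 52.5 and 130 FPKM with amphiregulin, against 23.1, 23.5 and 32.9 FPKM without it (log2 1.44, adjusted p = 0.0317 with the block and 0.987 without it).

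The members nearest to a call were RSAD2 and CMPK2, which lie 11859 bases apart on human chromosome 2 in the tables. RSAD2 had 7.998, 10.6 and 7.67 FPKM with amphiregulin, against 3.54, 4.13 and 3.28 FPKM without it (log2 1.06, SE 0.23, adjusted p = 0.654, or 0.0844 with the block). CMPK2 had 13.0, 12.8 and 26.3 FPKM with amphiregulin, against 6.61, 5.70 and 7.13 FPKM without it (log2 1.22, SE 0.32, adjusted p = 0.938, or 0.0798 with the block). In both the groups did not overlap. Leaving small RNA features out of the block fit, CMPK2 was called (adjusted p = 0.0373), as it was with the block and number 2 left out (0.0438), alternatives chosen after seeing the data.

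Other members pointed the opposite way in value. GBP2 had 12.4, 17.0 and 6.41 FPKM with amphiregulin, against 21.1, 34.4 and 13.3 FPKM without it (log2 -0.88, adjusted p = 0.999, or 0.0967 with the block). MX2 had 2.98, 5.20 and 2.25 FPKM with amphiregulin, against 5.22, 10.1 and 4.78 FPKM without it (log2 -0.77). HERC6 had 1.36, 1.78 and 0.828 FPKM with amphiregulin, against 2.33, 3.86 and 1.94 FPKM without it (log2 -0.66). Every pair was lower with amphiregulin in these 3 genes, but across unpaired libraries the groups overlapped for GBP2 and MX2. In all, 3 members were higher without overlap (RSAD2, CMPK2 and TRIM25) and 1 lower (HERC6), beside 3.60% and 3.09% of all genes.

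With the block, 3 further members had an unadjusted p under 0.05 and were not called: IFI44 (log2 -0.68, adjusted p = 0.329), IFIT2 (-0.57, adjusted p = 0.403) and OAS2 (-0.59, adjusted p = 0.425, all by limma). IFI44 had 1.25, 5.64 and 0.926 FPKM with amphiregulin, against 2.97, 11.6 and 1.37 FPKM without it, lower in each pair. The other members had an unadjusted p above 0.05 in both fits. ISG15 had 18.8, 36.5 and 29.2 FPKM with amphiregulin, against 47.1, 19.9 and 38.9 FPKM without it, and IRF7 had 25.0, 24.1 and 61.9 FPKM with amphiregulin, against 32.7, 26.2 and 71.2 FPKM without it. IFITM3, the most abundant member in 5 of 6 libraries, had 62.8, 87.4 and 101 FPKM with amphiregulin, against 86.2, 64.5 and 109 FPKM without it. Of the human counterparts outside the list, OAS1 had 12.5, 13.8 and 2.62 FPKM with amphiregulin, against 9.66, 10.4 and 1.42 FPKM without it (log2 0.43). OASL had 2.58, 3.92 and 5.95 FPKM with amphiregulin, against 6.58, 3.09 and 9.75 FPKM without it (log2 -0.48), and IFI44L had 0.313, 0.770 and 0.0497 FPKM with amphiregulin, against 0.236, 2.15 and 0.204 FPKM without it (-0.31). None of the 3 was called in either fit, IFI44L being under the filter (exact permutation p = 0.7, two-sided). IFNB1, IFNA1, IFNA2, IFNA4 and IFNA5 were listed at 0 throughout, and 0 of 8 receptor and kinase genes were called.

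Markers of other cells were read beside those of eosinophils. The 6 eosinophil markers summed to 1086 to 2777 FPKM with amphiregulin and 1356 to 4730 FPKM without it, 4 neutrophil markers to 6731 to 13649 and 8027 to 19779 FPKM, and 7 macrophage markers to 188 to 940 and 316 to 2333 FPKM, in the same order of groups. With the block, 3 of the 7 macrophage markers were called lower and 1 (MRC1) higher. The 4 T cell markers summed to 63.0 to 136 FPKM with amphiregulin and 111 to 274 FPKM without it. The 4 CD8 and natural killer markers summed to 9.86 to 55.8 and 18.5 to 80.7 FPKM in that order. The 4 dendritic cell markers went the other way, at 3.58 to 26.8 and 0.722 to 3.32 FPKM. In these last 3 lists 0 markers were called in either fit. The part of all these cells in the values of the members was not tested.

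**Figure D3:**
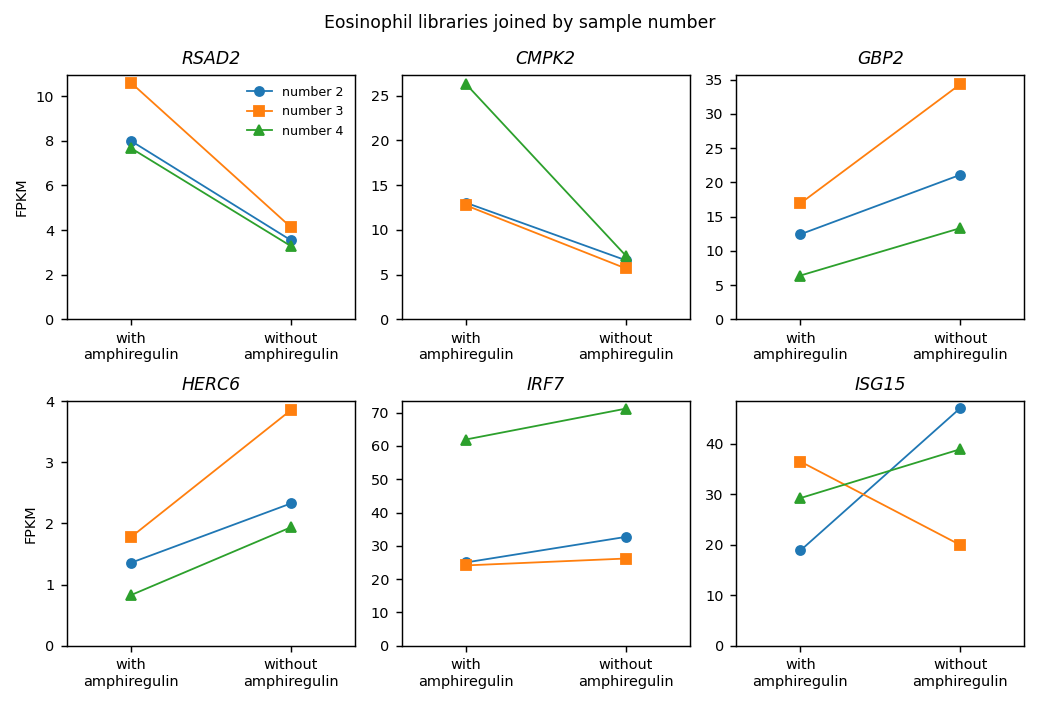
FPKM of 6 members in the eosinophil libraries with (left) and without (right) amphiregulin, with lines joining libraries of equal number. RSAD2 and CMPK2 lie higher on the left in all 3 pairs, GBP2 and HERC6 lower in all 3, IRF7 keeps number 4 highest in both groups, and the ISG15 lines cross.

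In lung, 0 of 43 members were called between dGATA and WT mice, and 2 had an unadjusted p under 0.05 (limma), beside 0.0947% of 13727 genes called. The eosinophil markers Ccr3 (log2 -2.50) and Prg2 (-2.88) were called lower in dGATA lungs, but both passed the filter only through WT lungs, which fixes their direction. Il5ra, the other marker tested, overlapped between the groups, and Gata1 had 0.126, 0.134 and 0.314 FPKM in dGATA lungs 1, 2 and 3, against 1.65, 1.23 and 0.963 FPKM in WT lungs. The members' median difference was 0.05, with 25 of 43 above 0, against -0.03 for all genes; after rescaling to TPM, 17 of 43 lay above 0, with a median of -0.06 against -0.13. Leaving out dGATA lung 3 left 6 of 43 above 0, and leaving out dGATA lung 1 gave 37, so the sign of most members rests on single lungs.

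The members with the largest differences were Oas1a and its neighbour Oas1g. Oas1a had 4.29, 13.9 and 21.2 FPKM in dGATA lungs, against 0.135, 0.138 and 0.0356 FPKM in WT lungs. The lowest dGATA lung was far above the highest WT lung (log2 3.45, SE 0.50, adjusted p = 0.175 by limma), and the ratio of means was 127. Oas1g had 2.02, 7.42 and 12.0 FPKM in dGATA lungs, against 0.0911, 0.0359 and 0.0623 FPKM in WT lungs (log2 2.70, SE 0.50, adjusted p = 0.364). These were the only members whose groups did not overlap, beside 4.26% of all genes higher without overlap. Both reached 1 FPKM in dGATA lungs alone, so that their direction and lack of overlap follow from the filter, and their p-values describe these libraries only. Without dGATA lung 1 both were called (adjusted p = 0.00355 and 0.0111). The sequence they share, given above, means that reads of one may have been counted for the other.

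Other Oas1 copies lie outside the list. Oas1b had 3.58, 4.80 and 7.78 FPKM in dGATA lungs, against 0.918, 0.704 and 0.588 FPKM in WT lungs (log2 1.83, SE 0.24, adjusted p = 0.148). Oas1c had 2.26, 2.53 and 2.49 FPKM in dGATA lungs, against 1.82, 1.54 and 1.56 FPKM in WT lungs (log2 0.38, adjusted p = 0.542). Neither passed the test. Oas1b was under 1 FPKM in every WT lung and above it in every dGATA lung, so its lack of overlap also follows from the filter. Oas1c was above 1 FPKM in every lung, so the filter did not fix its direction. It was higher in dGATA lungs without overlap, as were 4.26% of all genes. The other synthetases of the family did not share the pattern: Oas2 had 1.78, 3.72 and 10.8 FPKM in dGATA lungs, against 4.80, 4.15 and 2.91 FPKM in WT lungs (log2 0.14), and Oas3 had 0.715, 1.12 and 3.36 FPKM in dGATA lungs, against 1.27, 1.19 and 0.786 FPKM in WT lungs (log2 0.28). In the Th2 cells, labelled BALB/c like both lung groups, Oas1a reached 37.5 to 104 FPKM with IL-2 alone. The cause of the Oas1 differences in lung was not tested.

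**Figure D4:**
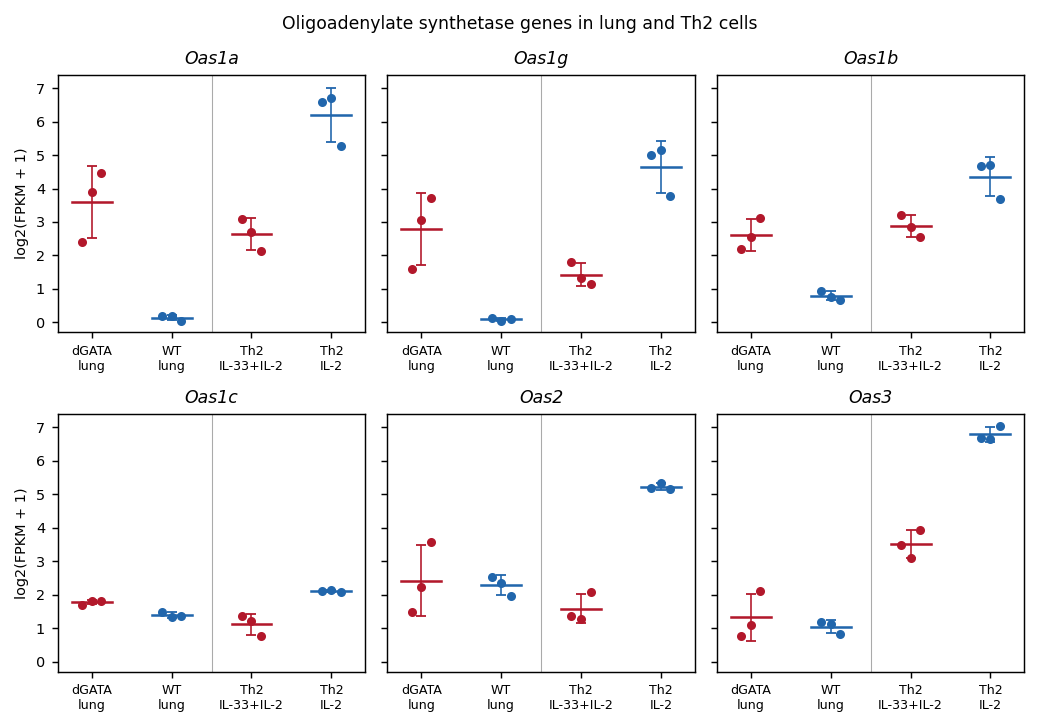
log2(FPKM + 1) of 6 oligoadenylate synthetase genes in dGATA and WT lungs and in Th2 cells with IL-33 and IL-2 or with IL-2 alone; points are libraries, horizontal bars means and error bars SD (n = 3). Oas1a, Oas1g and Oas1b are near 0 or 1 in WT lung and higher in all 3 dGATA lungs, while Oas2 and Oas3 overlap.

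Across the rest of the list, the dGATA lungs differed among themselves more than from WT. Irf7 had 10.6, 17.9 and 61.4 FPKM in dGATA lungs, against 19.2, 18 and 16.1 FPKM in WT lungs. Isg15 had 13.1, 21.1 and 41.5 FPKM in dGATA lungs, against 19.6, 21.7 and 15.6 FPKM in WT lungs. Oasl2 had 11.8, 14.5 and 29.8 FPKM in dGATA lungs, against 15.4, 14.9 and 16.9 FPKM in WT lungs. In these 3 genes dGATA lung 3 was above and dGATA lung 1 below every WT lung. Usp18, Rtp4, Bst2 and Ifi44 were likewise highest in dGATA lung 3, at 21.1, 28.1, 156 and 10.5 FPKM.

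By count, dGATA lung 3 was the highest of all 6 in 34 of 43 members (15.5% of all genes) and dGATA lung 1 the lowest in 30 (30.6% of all genes). The ratio of highest to lowest library was wider in dGATA than in WT lungs in 40 of 43 members, as it was in 80.0% of all genes. Genes that prefer interferon-gamma kept another order: dGATA lung 2, not 3, was the highest of the dGATA lungs in 12 of 12 tested (33.04% of all genes). The order was not particular to these genes. The same lung was the highest of all 6 in 5 of 7 macrophage, 3 of 4 T cell and 5 of 6 CD8 and natural killer markers. It was so in 0 of 3 B cell, 0 of 4 eosinophil and 1 of 5 plasmacytoid dendritic cell markers. Cxcl9, a chemokine induced by interferon-gamma, had 0.317, 32.6 and 3.94 FPKM in dGATA lungs, against 11.8, 4.09 and 10.1 FPKM in WT lungs, and Ifng had 0.151, 1.33 and 0.335 FPKM in dGATA lungs, against 0.747, 0.625 and 0.718 FPKM in WT lungs. Ifna1 and Ifna2 were listed above 0 in dGATA lung 3 alone, at 0.0764 and 0.152 FPKM, and Ifnb1 was at 0 in all 6.

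Cxcl10 was the member with the lowest difference. It had 0.618, 9.15 and 4.06 FPKM in dGATA lungs, against 8.18, 12.6 and 11.5 FPKM in WT lungs, overlapping through dGATA lung 2 (log2 -1.41, SE 0.63, adjusted p = 0.742). Gbp2 followed the interferon-gamma order, at 23.1, 42.4 and 27.3 FPKM in dGATA lungs, against 33.7, 31.6 and 35.9 FPKM in WT lungs. Members with steady levels included Ifih1 (7.86, 7.10 and 8.12 FPKM in dGATA lungs, against 6.68, 8.09 and 7.68 FPKM in WT lungs) and Ifitm3, again the most abundant at 528, 623 and 709 FPKM in dGATA lungs, against 543, 510 and 566 FPKM in WT lungs.

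Cell markers varied between the dGATA lungs too. The 7 macrophage markers summed to 528, 1593 and 1232 FPKM in dGATA lungs 1, 2 and 3, against 1276, 1107 and 1199 FPKM in WT lungs, with 0 of 6 tested called. The 4 T cell markers summed to 18.08, 44.97 and 33.64 FPKM in dGATA lungs, against 35.05, 28.07 and 29.68 FPKM in WT lungs. The 6 CD8 and natural killer markers summed to 14.68, 32.13 and 20.97 FPKM in dGATA lungs. In WT lungs these 6 markers summed to 26.18, 22.71 and 22.98 FPKM. No marker of either list was called. The 5 plasmacytoid dendritic cell markers summed to 43.3, 77.9 and 63.4 FPKM in dGATA lungs, against 85.4, 63.7 and 65.8 FPKM in WT lungs, and the 3 B cell markers to 22.9, 63.8 and 83.2 FPKM in dGATA lungs, against 108, 61.9 and 38.4 FPKM in WT lungs. The 4 eosinophil markers summed to 0.309, 1.86 and 2.49 FPKM in dGATA lungs, against 19.6, 18.5 and 11.5 FPKM in WT lungs, with Epx listed at 0 in all 3 dGATA lungs. The 4 lung epithelium markers went another way, with dGATA lung 1 the highest. They summed to 121329, 101983 and 98413 FPKM in dGATA lungs, against 81862, 93379 and 83779 FPKM in WT lungs. Of these 4, 3 were higher without overlap, beside 4.26% of all genes, and 0 were called. The part of these cells in the members' values was not tested.

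**Figure D5:**
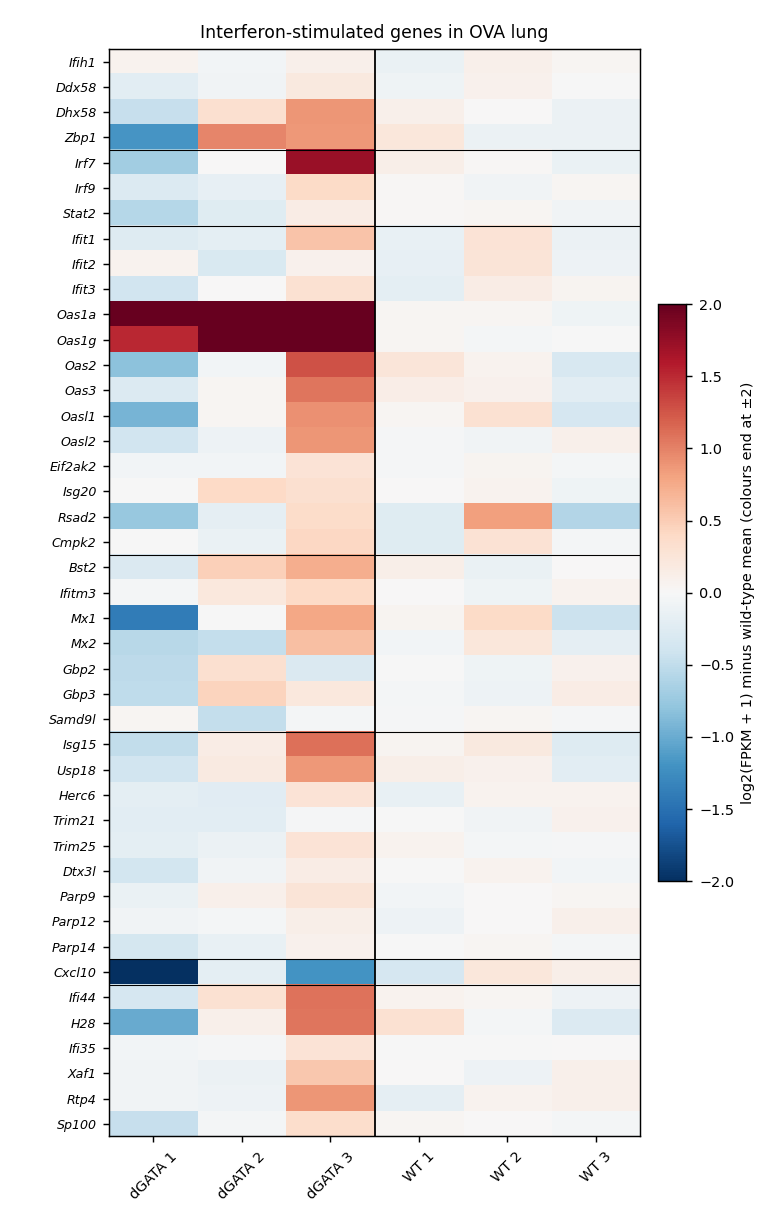
log2(FPKM + 1) of each member in each lung library minus the mean of the WT lungs, with colours ending at ±2; dGATA lungs stand left of WT lungs. Oas1a and Oas1g are dark red in all 3 dGATA lungs, whereas most other members are red in dGATA lung 3 and blue in dGATA lung 1.

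Set side by side, the 6 groups held the members at unequal levels, which are given without a test because tissue, species and library set coincide with the group. The median member had 7.72, 7.11 and 10.4 FPKM in Th2 cells with IL-33 and 52.2, 54.9 and 58.0 FPKM in Th2 cells with IL-2 alone. It had 5.74, 8.51 and 2.97 FPKM in eosinophils with amphiregulin and 5.52, 10.4 and 3.502 FPKM in those without it, and 8.26, 12.6 and 16.8 FPKM in dGATA lungs and 12.1, 11.9 and 11.01 FPKM in WT lungs. The eosinophil medians cover 39 members and the others 43, and small RNA features took 20.0 to 38.39% of eosinophil FPKM. Th2 cells with IL-2 alone stood above every library of the other 5 groups. Isg15 did so too, at 706 ± 42.4 FPKM with IL-2 alone, beside 99.3 ± 34.8 FPKM with IL-33, 28.2 ± 8.85 and 35.3 ± 13.9 FPKM in eosinophils with and without amphiregulin, and 25.2 ± 14.6 and 19.0 ± 3.12 FPKM in dGATA and WT lungs (SD, n = 3 each).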

How the data were processed

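The authors deposited 1 FPKM table per library, made with TopHat 1.3.2, Bowtie 0.12.8 and Cufflinks 2.0.2 on mm10 per the submitters' processing notes; libraries were stranded mRNA per the labels' protocols. The notes name mm10 for the eosinophils too, but their coordinates and symbols are human, and no source used here gives a build for them. FPKM was summed per symbol. In the human tables, 114 sex-linked symbols were left out. Each comparison used its own 6 libraries: log2(FPKM + 1), no further scaling, genes with at least 1 FPKM in at least 3 libraries, limma 3.58.1 with a trend (R 4.3.3), 2-sided, Benjamini-Hochberg over all genes; members under the filter had an exact permutation test (scipy 1.17.1). The scripts were tested on simulated data. Depth is unknown beyond relative values, so no counting interval is given.

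The members, lists and roles were chosen with earlier results of these data known. All members are named; of each pathway list up to 4 genes with the smallest p, and further genes (Ifng, Ifnar1, Ifnar2, Socs1, Ifi27l1, Oas1c, Cxcl9 and counts of 5 or fewer spelled out) after their values were seen. Where an eosinophil library number recurs, deviations from group means correlated at 0.399, 0.356 and 0.67, all above 0.1, so the numbers were treated as pairs from the data; unequal numbers 2 and 3 correlated at 0.281 and 0.308, nearly as much, and the labels do not state what a number marks. Alternatives were pseudocounts of 0.1 and 0.5, no filter, a mean of at least 5 FPKM, TPM rescaling, scaling by median ratios, array weights, leaving out each library, the replicate block, and leaving out small RNA features, which took 20.0 to 38.39% of eosinophil FPKM. One gene of a pathway list is counted but not reported here by name. Shared sequence was counted in 50-base windows of GENCODE transcripts.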

Additional observations from a re-analysis of the deposited data

How the results depend on the processing

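In Th2 cells all 43 members stayed called lower, and 0 higher, under every alternative run; their 602 alternative values kept direction and side of the threshold. All genes called lower numbered 2651, and 1586 after rescaling to TPM, 4050 with array weights and 1530 to 3135 when leaving out 1 library (1530 and 1633 without IL-33 libraries 4 and 2); median-of-ratios scaling moved the median of all genes by 0.10. No paired analysis was run in Th2 cells, because the groups share no library number and no label states pairs. In eosinophils, all genes called higher (4) and lower (22) became 1 and 6 with a pseudocount of 0.1, 2 and 21 with no filter, 2 and 6 with the stricter filter, 8 and 22 after rescaling to TPM, 1875 and 1361 with array weights, 0 and 0 without small RNA features, 67 and 74 with the replicate block, and 119 and 77 when that block fit left small RNA features out. With the block and number 2, 3 or 4 left out, they were 117 and 101, 7 and 12, and 422 and 261. Leaving out 1 library gave 0 to 48 higher and 4 to 24 lower; the 48 came without library 4 of the amphiregulin group. Members called in eosinophils stayed at 0 except for 2 higher and 5 lower with array weights, and 1 higher (CMPK2) in the block fits leaving out small RNA features or number 2. In lung, all genes called higher (6) and lower (7) became 4 and 4 with the stricter filter, 558 and 878 with array weights, and 2 and 1 with the replicate block, whose equal numbers correlated at -0.286, -0.116 and -0.243 and share only a number; leaving out 1 library gave 1 to 7 higher and 1 to 9 lower. Lung members called stayed at 0 except for 13 higher and 1 lower with array weights, and 2 higher without dGATA lung 1 (range 0 to 2). Without dGATA lung 3 the difference reversed for Irf7 (leave-one-out range -0.34 to 0.87) and Isg15 (-0.16 to 0.63), and both were called higher with array weights. Oas1a ranged from 3.01 to 5.80 (adjusted p 0.000921 to 0.889) and CMPK2 from 0.90 to 1.47 (0.00284 to 1.0). In 2 fits the estimation of array weights stopped before converging. The cause of these shifts was not tested. With 3 libraries a group, no read counts and depth differing up to several times, members that missed the threshold are not shown to be equal. No group has enough libraries for a test of outlying samples.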

Other observations

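In Th2 cells the 12 members with the response element core in the scanned promoter window had a median difference of -3.26 on the log2(FPKM + 1) scale (range -4.91 to -1.60). The 21 members with a promoter entry and no match had a median of -2.24 (range -4.97 to -0.81), and the 10 measured members with no entry had -3.23. The ranges overlap, the split was looked at after the differences were known, and it was not tested. Th2 marker genes moved opposite to the members. The 4 markers summed to 13240 to 21838 FPKM with IL-33 and 8990 to 9879 FPKM with IL-2 alone. Of these 4, 3 were called higher, beside 16.3% of all genes. The 4 general T cell markers moved the same way, with 3 called higher.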
